A study of Mus musculus with 9 samples.

Results

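The 34 genes described here act in mitosis, and were picked by name from the 23285 genes of the authors' deposited table as mitotic kinases, spindle, kinetochore and anaphase genes. Each name matched exactly 1 row in each comparison, and all 34 had a completed test in each of them. The table comes from RNA sequencing of immature erythroid cells of mouse bone marrow, in 3 groups of 3 libraries on a C57BL/6 background. In both mutant groups the floxed gene Trim28, which encodes a corepressor recruited to chromatin by KRAB zinc finger proteins, had been deleted. KOa cells, called modestly deleted in the labels, were TRIM28(flox/flox):Mx1Cre cells sorted as CD71(hi)TER119+, with 5% to 8% of the gene left undeleted. KOb cells, called severely deleted, had the same TRIM28(flox/flox):Mx1Cre genotype but were sorted as CD71(hi)TER119-, with 1% to 4% of the gene left. FFa cells, the control, were TRIM28(flox/flox) without Cre and were sorted as CD71(hi)TER119+, so all 3 groups carried the floxed alleles.

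Cre was driven by the interferon-responsive Mx1 promoter, which is active in many cell types, so the deletion need not be limited to erythroid cells. It was induced with 5 poly(I:C) injections given on alternate days, and tissue was taken 2 weeks after the last one. The labels do not say whether FFa mice received poly(I:C), how old the mice were, or whether each library stands for a mouse of its own. The deposited p-values therefore measure the spread between libraries, which may be partly technical. The sort gate and the degree of deletion differ together between KOb and the other groups, and Cre and the deletion differ together between both mutants and FFa, so neither pair can be told apart.

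Immature erythroid cells divide rapidly, and they pass through a last set of divisions before they condense and expel the nucleus. Entry into mitosis is driven by the kinase CDK1 bound to a B-type cyclin, and the Aurora and Polo-like kinases then build the spindle. Chromosomes attach to it through kinetochores, and the spindle checkpoint holds the cell until all are attached. The anaphase-promoting complex then marks securin and cyclin B for destruction, separase opens cohesin, and the cell divides. Transcripts of many of these genes are known to peak in G2 and mitosis, through promoter elements bound by the DREAM and MuvB complexes.

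Levels are given in FPKM, fragments scaled by transcript length and by mapped fragments. The authors deposited 1 FPKM value for each gene and group, made from its 3 libraries together, so no value has an SD and the depth behind it is unknown. The ± after a log2 ratio is a standard error, taken as the ratio divided by the test statistic that the authors deposited, and a gene is called where the deposited q is below 0.05. In bulk RNA, fewer cycling cells and less RNA per cell cannot be told apart. The targeted gene was lower in both mutants: Trim28 had 6.64 FPKM in KOa and 4.76 FPKM in KOb, against 26.0 FPKM in FFa. In the authors' deposited table it fell by 1.97 ± 0.30 in KOa and by 2.45 ± 0.30 in KOb on the log2 scale (q = 0.000619 each). Its level was thus 25.5% of FFa in KOa and 18.3% in KOb, beside labelled residual mRNA of 26% and 18%. The labelled shares of undeleted gene are a different measure and are lower. Between the mutants its KOb over KOa ratio of -0.48 ± 0.32 was not called (q = 0.0535). Globin genes took 76.3% of the summed FPKM in KOa, 53.3% in KOb and 64.6% in FFa, and the sum left without them was 302378 FPKM in KOa, 308022 FPKM in KOb and 438557 FPKM in FFa. The labels and notes used here do not say how libraries were scaled to each other. Mutant values set against FFa depend on it more than KOb values set against KOa.

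All 34 mitosis genes were expressed in every group. Their summed level was 2089 FPKM in KOa, 1635 FPKM in KOb and 1976 FPKM in FFa. Ube2c, which encodes a ubiquitin-conjugating enzyme of the anaphase-promoting complex, had the highest level of the 34, with 567.8 FPKM in KOa, 368.6 FPKM in KOb and 384.6 FPKM in FFa. Birc5, which encodes survivin, followed with 218.3 FPKM in KOa, 176.9 FPKM in KOb and 244.8 FPKM in FFa. Ttk, which encodes the checkpoint kinase MPS1, was the lowest, with 5.50 FPKM in KOa, 4.85 FPKM in KOb and 5.46 FPKM in FFa. By order of level alone, with no test, KOb was the lowest group for 24 genes, KOa for 6 and FFa for 4, while FFa was the highest for 24, KOa for 10 and KOb for 0.

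**Figure D1:**
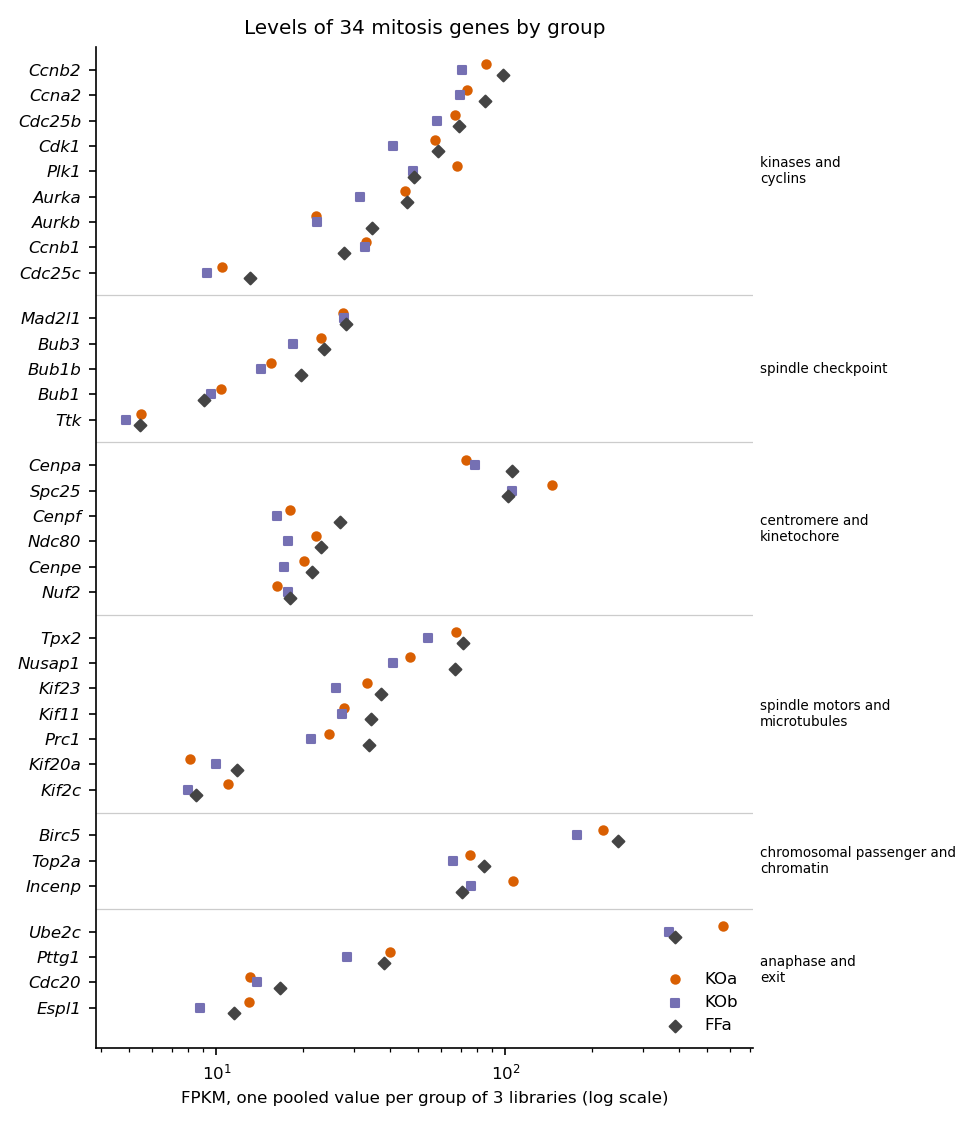
FPKM of each of the 34 genes (log axis), 1 deposited value per group of 3 libraries, with KOa as circles, KOb as squares and FFa as diamonds, and genes ordered by level within their roles. Most KOb squares lie at the left, while Plk1, Spc25, Incenp and Ube2c have their highest value in KOa; no error is drawn because the table holds none per group.

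Many of these genes share a pair of promoter motifs, which are shown here for 8 genes whose levels are described below. RefSeq promoter windows (GRCm38.p6, 250 bases before to 50 after the start) were at hand for 28 of the 34 genes, and Aurkb, Tpx2, Cdc25c, Incenp, Kif20a and Ccna2 had none. The lines give 100 bases before to 30 after the start, 5′ to 3′ on the gene's strand, with 2 motifs in capitals. These are the CHR (cell cycle genes homology region, TTTGAA with its reverse complement TTCAAA, and also TTCGAA) and the CCAAT box (CCAAT with its reverse complement ATTGG), bound in other work by MuvB complexes and by NF-Y. The genes were chosen after the match positions were seen, as windows in which both motifs fall.
Ube2c, chr2:164769829-164769958, plus strand: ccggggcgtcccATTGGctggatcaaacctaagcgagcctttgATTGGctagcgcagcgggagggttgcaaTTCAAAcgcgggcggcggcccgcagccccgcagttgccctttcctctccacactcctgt
Spc25, chr2:69206184-69206313, minus strand: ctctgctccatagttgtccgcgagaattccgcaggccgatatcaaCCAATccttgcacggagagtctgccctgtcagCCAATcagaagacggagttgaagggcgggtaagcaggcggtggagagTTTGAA
Espl1, chr15:102296193-102296322, plus strand: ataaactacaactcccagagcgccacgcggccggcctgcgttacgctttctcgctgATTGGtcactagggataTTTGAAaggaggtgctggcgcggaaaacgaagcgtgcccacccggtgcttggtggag
Cdk1, chr10:69352883-69353012, minus strand: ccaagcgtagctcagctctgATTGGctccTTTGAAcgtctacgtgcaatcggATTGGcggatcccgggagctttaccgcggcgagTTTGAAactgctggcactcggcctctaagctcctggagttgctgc
Cenpf, chr1:189688057-189688186, minus strand: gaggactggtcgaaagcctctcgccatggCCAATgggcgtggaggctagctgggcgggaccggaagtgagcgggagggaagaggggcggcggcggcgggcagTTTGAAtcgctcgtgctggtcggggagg
Prc1, chr7:80294351-80294480, plus strand: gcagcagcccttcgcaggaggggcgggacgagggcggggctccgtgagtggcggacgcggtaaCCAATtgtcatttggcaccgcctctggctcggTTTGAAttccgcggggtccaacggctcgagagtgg
Kif23, chr9:61946770-61946899, minus strand: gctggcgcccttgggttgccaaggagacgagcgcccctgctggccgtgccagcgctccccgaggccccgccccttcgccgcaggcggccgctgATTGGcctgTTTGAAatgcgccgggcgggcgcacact
Cdc20, chr4:118437314-118437443, minus strand: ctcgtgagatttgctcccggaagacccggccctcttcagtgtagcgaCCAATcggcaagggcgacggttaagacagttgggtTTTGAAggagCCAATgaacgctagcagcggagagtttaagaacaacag

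Over the whole 300 base window, searched on both strands, a CHR match was present in 21 of the 28 genes (75%), against 21.7% of the 27025 genes with a RefSeq window. A CCAAT box was present in 21 of 28 (75%), against 41.1% of those genes, and both together in 19 of 28 (67.9%), against 9.65%. An E2F site, searched as TTCCCGC or else TTGGCGC or else TTCGCGC or else TTGCCGC and as the reverse complements, was present in 2 of 28 (7.14%), Cdk1 and Ccnb1, against 10.9%. The form that begins with TTGG can overlap a reversed CCAAT box. The 27025 genes include many that were not tested in these data, so their shares are not a background of expressed genes. In 111 further mitotic genes, of which 93 had a window, 52.7% held a CHR, 62.4% a CCAAT box and 34.4% an E2F site. The CHR matches had a median position of -15 relative to the start, and 19 of 27 began between -60 and 40. A CHR was in 6 of the 7 genes with a window that were called lower in KOb against KOa and in 15 of the 21 not called there. A match describes letters in a window and was not tested as a binding site in these cells.

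**Figure D2:**
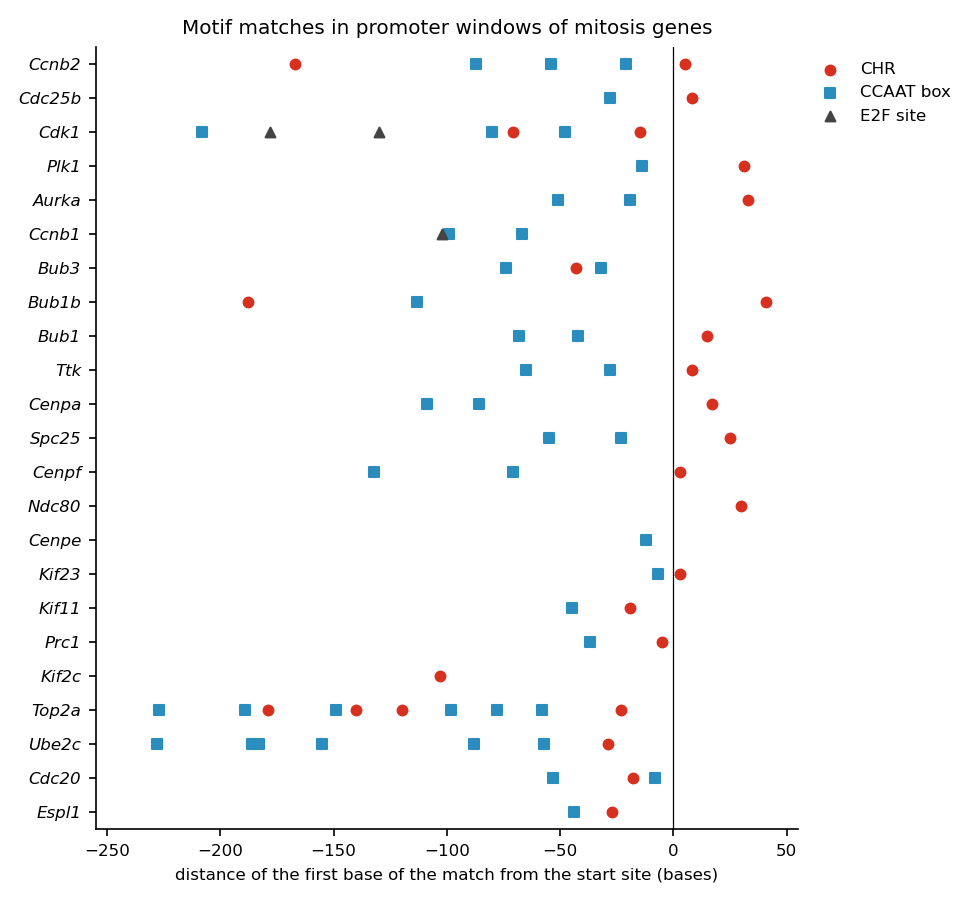
Position of each match to the CHR (circles), CCAAT box (squares) and E2F site (triangles) in the promoter windows of the mitosis genes that hold at least 1 match, in bases from the annotated start (vertical line). CHR matches gather near the start, with a median of -15, and CCAAT boxes lie mostly before them, with a median of -66.

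Between KOa and FFa, which share the TER119+ gate, the mitosis genes moved in both directions. Called in the authors' deposited table were 4 of 34 as higher (11.8%) and 5 of 34 as lower (14.7%). Over all genes tested in that comparison, 7.99% were called higher and 14.1% lower. Over tested genes that reached 5 FPKM in 1 of the groups, 11.4% were higher and 15.5% lower. The members' shares were thus close to those of genes that reached 5 FPKM, a set not matched to the members in level. Their median log2 ratio was -0.09, with a range of -0.64 to 0.58 and 24 of 34 below 0, against a median of -0.08 over all genes tested. A scaling to equal sums without globin added 0.54 to every ratio in this comparison, which made the members' median 0.445 and that of expressed genes 0.49. Under that scaling the called falls of Cenpa, Nusap1 and Prc1 turned to small positive ratios of 0.0027, 0.0251 and 0.0812.

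Set against FFa, KOb showed lower levels of mitosis genes and no rise. By the deposited q of the authors, 0 of 34 were called higher and 11 of 34 lower (32.4%), where all genes tested gave 12.8% higher and 15.2% lower. Among genes that reached 5 FPKM these shares were 15.7% higher and 18.7% lower. At a deposited p below 0.05 without adjustment the count stayed at 0 higher, with 18 lower. The share of all genes at that threshold was not computed, so the 18 have no background to be read against. The median log2 ratio was -0.36, with 30 of 34 below 0 and a range of -0.72 to 0.24, against -0.01 over all genes tested. Scaling to equal sums without globin added 0.51, so that the members' median became 0.1541 and that of expressed genes 0.52. The ratios of Birc5, Bub1b, Ccnb2 and Cdc25c, called lower, then lay just above 0, between 0.0173 and 0.0443. Relative to the median of expressed genes the members' median was -0.37. It is the same under either scaling by construction, since the globin-free scaling adds the same amount to every ratio.

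Between the mutants, which share genotype and induction, the mitosis genes were again called in 1 direction. KOb was lower than KOa for 8 of 34 (23.5%) and higher for 0 of 34 in the authors' deposited table, against 6.19% lower and 10.0% higher over all genes tested. Of genes that reached 5 FPKM, 11.4% were lower and 12.1% higher. At an unadjusted deposited p below 0.05 there were 10 lower and 0 higher, again with no share of all genes computed at that threshold. The median log2 ratio was -0.21, with 28 of 34 below 0 and a range of -0.62 to 0.29, against 0.05 over all genes tested. The globin-free scaling moved ratios in this comparison by only -0.03 and left the members' median at -0.24. The 3 comparisons share their groups, so a low KOb value enters the counts against FFa and against KOa alike.

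The called changes in mitosis genes were of modest size. The called members had a median absolute log2 ratio of 0.53 in KOa over FFa, 0.52 in KOb over FFa and 0.50 in KOb over KOa. All called genes that reached 5 FPKM had 0.81 in KOa over FFa, 0.81 in KOb over FFa and 0.66 in KOb over KOa. Read as a standard normal value and adjusted over the 3 comparisons, the authors' deposited statistic called 0 members in each comparison. At an unadjusted normal p below 0.05 it called 4 in KOa over FFa, 5 in KOb over FFa and 2 in KOb over KOa. Shares of all genes at that threshold were not computed. The authors' deposited p-values for the same statistics are smaller, and the calls below rest on them.

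**Figure D3:**
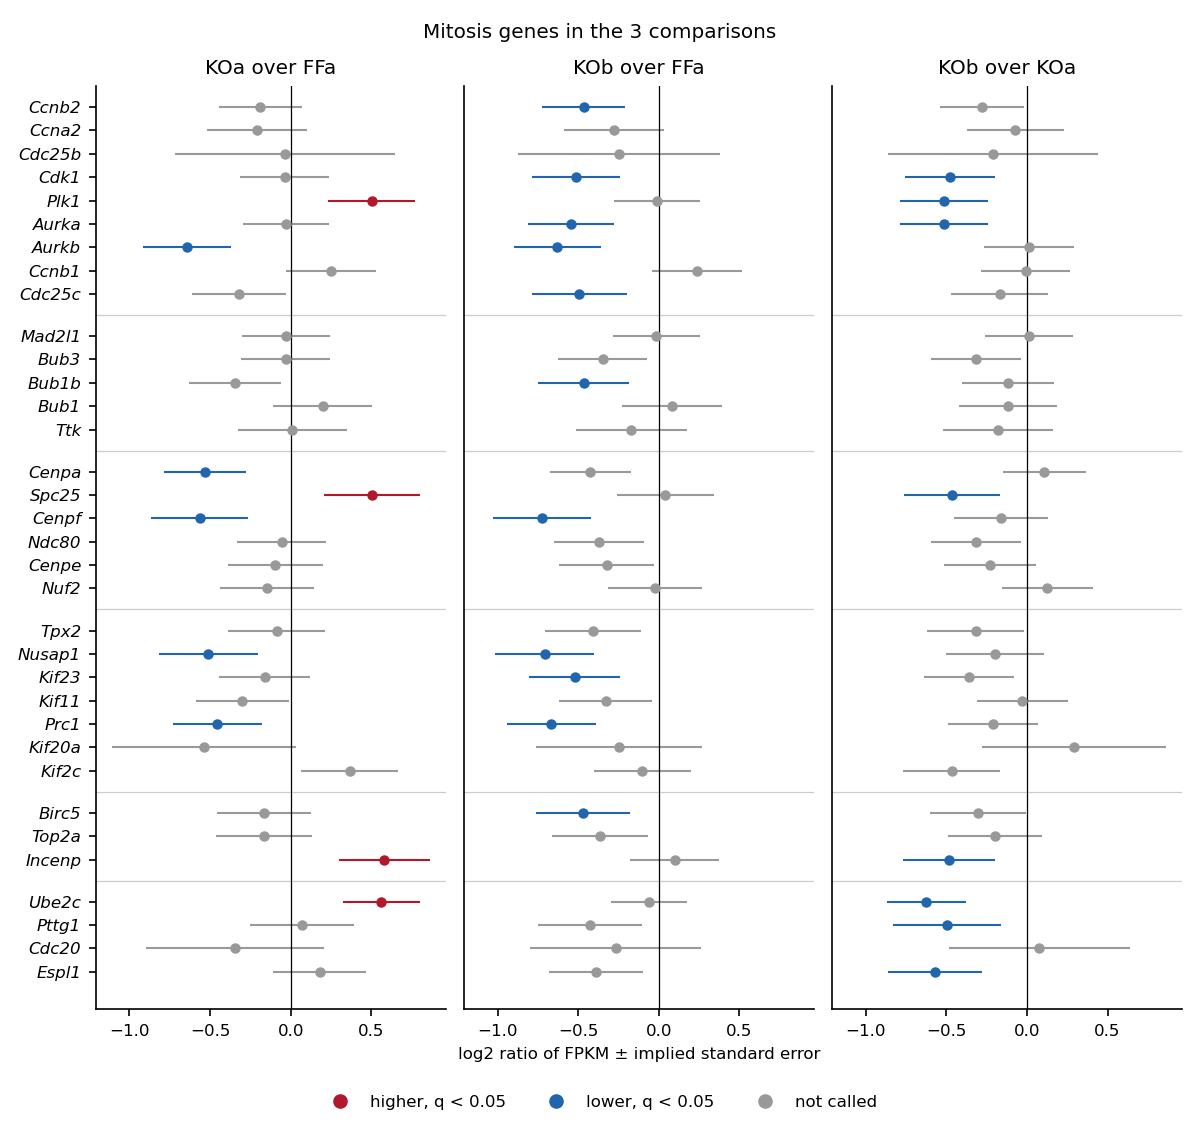
Log2 ratio of FPKM of each gene in KOa over FFa, KOb over FFa and KOb over KOa, with bars of 1 implied standard error, coloured where the deposited q is below 0.05. No gene is called higher in the middle and right panels; the members' medians of -0.09 and -0.36 against FFa turn positive under a scaling without globin (0.445 and 0.1541), and the median of -0.21 in the right panel does not.

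Kinases and cyclins that drive entry into mitosis held 5 of the 11 genes that fell in KOb against FFa, out of 9 in the role. That was 55.6% of the role, beside 18.7% of genes that reached 5 FPKM. Cdk1, the master kinase of mitosis, had 56.9 FPKM in KOa, 40.9 FPKM in KOb and 58.4 FPKM in FFa. Aurka, the Aurora kinase of the spindle poles, had 44.8 FPKM in KOa, 31.4 FPKM in KOb and 45.7 FPKM in FFa. As deposited, KOa stood beside FFa and KOb stood apart for both genes. Under the globin-free scaling the KOb over FFa ratios were -0.0056 for Cdk1 and -0.0348 for Aurka. Which group stood apart from FFa thus depends on the scaling. Orders of the mutants and FFa given below for other genes are as deposited too. In the authors' deposited table Cdk1 fell by 0.52 ± 0.27 in KOb against FFa (q = 0.0186) and by 0.48 ± 0.28 in KOb against KOa (q = 0.0300). Aurka fell in the same table by 0.54 ± 0.27 in KOb against FFa (q = 0.0122) and by 0.51 ± 0.27 in KOb against KOa (q = 0.0178).

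Other genes of the role followed different orders. Aurkb, the Aurora kinase of the chromosomal passenger complex, had 22.1 FPKM in KOa and 22.3 FPKM in KOb, against 34.5 FPKM in FFa, so that both mutants stood together below the control. The authors' deposited table put its fall at 0.64 ± 0.27 in KOa (q = 0.00161) and 0.63 ± 0.27 in KOb (q = 0.00248). Plk1, the Polo-like kinase that acts from entry to cytokinesis, had 68.2 FPKM in KOa, 47.8 FPKM in KOb and 48.1 FPKM in FFa. As deposited, KOa alone stood high for Plk1, and the authors' deposited table gave a rise of 0.50 ± 0.27 against FFa (q = 0.0197) and a KOb over KOa ratio of -0.51 ± 0.27 (q = 0.0171). An antisense transcript model, Gm44985, overlaps Plk1, and without stated strand use the reads of both cannot be told apart.

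Ccnb2, which encodes cyclin B2, had 85.8 FPKM in KOa, 70.8 FPKM in KOb and 97.8 FPKM in FFa, and the authors' deposited table called its fall of 0.47 ± 0.26 in KOb against FFa (q = 0.0319). Ccnb1, which encodes cyclin B1, was not called, with 32.9 FPKM in KOa and 32.7 FPKM in KOb, against 27.7 FPKM in FFa. In KOb against FFa the ratios as deposited by the authors were -0.47 for Ccnb2 and 0.24 for Ccnb1 (q = 0.344 for Ccnb1), and under the globin-free scaling the ratio of Ccnb2 was 0.0442, so their opposite signs depend on the scaling. Both have processed pseudogenes (Ccnb1-ps and Ccnb2-ps), with which their reads may be shared. Ccna2, which encodes cyclin A2, had 73.4 FPKM in KOa, 69.8 FPKM in KOb and 84.7 FPKM in FFa and was not called.

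The CDC25 phosphatases remove the inhibitory phosphates from CDK1. Cdc25c had 10.5 FPKM in KOa, 9.29 FPKM in KOb and 13.1 FPKM in FFa, and the authors' deposited table called it lower in KOb against FFa by 0.49 ± 0.29 (q = 0.0434), close to the threshold. Cdc25b had 67.1 FPKM in KOa, 58.0 FPKM in KOb and 68.9 FPKM in FFa and was not called. Its implied standard errors of 0.63 to 0.68 were among the widest of the 34, and the table reports it in a locus of 477 kb that holds 12 other genes.

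Spindle checkpoint genes gave 1 call in 5 genes, lower in KOb against FFa (20.0%, beside 18.7% of genes that reached 5 FPKM). Their summed level over 5 genes was 81.8 FPKM in KOa, 74.9 FPKM in KOb and 85.7 FPKM in FFa. The call was Bub1b, which encodes BUBR1 of the mitotic checkpoint complex, with 15.5 FPKM in KOa, 14.2 FPKM in KOb and 19.7 FPKM in FFa. The authors' deposited table gave it a fall of 0.47 ± 0.28 in KOb against FFa (q = 0.0358). Mad2l1, which encodes the CDC20 inhibitor MAD2, had 27.5 FPKM in KOa, 27.7 FPKM in KOb and 28.0 FPKM in FFa, nearly equal in the 3 groups. Bub3 was at 23.0 FPKM in KOa, 18.5 FPKM in KOb and 23.5 FPKM in FFa, and Bub1 at 10.4 FPKM in KOa, 9.56 FPKM in KOb and 9.04 FPKM in FFa. With implied standard errors of 0.27 to 0.34 for these 4 uncalled genes, changes of the size called elsewhere in the module could be missed.

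Of the 6 centromere and kinetochore genes 3 were called in KOa against FFa, 1 as higher (16.7%) and 2 as lower (33.3%). Of genes that reached 5 FPKM, 11.4% were higher and 15.5% lower there. The NDC80 complex, which binds spindle microtubules, is made of the products of Ndc80, Nuf2, Spc24 and Spc25. Spc25 had 145.1 FPKM in KOa, 105.3 FPKM in KOb and 102.3 FPKM in FFa. As deposited, KOa stood above KOb and FFa, which lay close together. Its rise of 0.50 ± 0.30 in KOa against FFa (q = 0.0197) and its KOb over KOa ratio of -0.46 ± 0.30 (q = 0.0381) were called in the authors' deposited table. Ndc80 had 22.1 FPKM in KOa, 17.7 FPKM in KOb and 23.0 FPKM in FFa, Nuf2 had 16.2 FPKM in KOa, 17.7 FPKM in KOb and 18.0 FPKM in FFa, and neither was called. Spc24, from the list of further mitotic genes, had 18.2 FPKM in KOa, 17.2 FPKM in KOb and 20.9 FPKM in FFa and was not called either. The Spc25 level was thus several times that of its partners in each group, per transcript length.

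Cenpa, the centromeric histone H3 variant, and Cenpf, a large protein of the outer kinetochore, had lower values in both mutants than in FFa. Cenpf had 18.0 FPKM in KOa and 16.2 FPKM in KOb, against 26.7 FPKM in FFa. The authors' deposited table called its fall of 0.57 ± 0.30 in KOa (q = 0.0102) and of 0.72 ± 0.30 in KOb (q = 0.000619), the largest of the 34 in KOb against FFa. Cenpa had 72.8 FPKM in KOa and 78.5 FPKM in KOb, against 105.4 FPKM in FFa. Its fall in KOa, by 0.53 ± 0.25, was called in the authors' deposited table (q = 0.0136), while in KOb the ratio of -0.43 ± 0.25 just missed the threshold (q = 0.0553). Cenpe, a kinetochore motor gene, had 20.0 FPKM in KOa, 17.1 FPKM in KOb and 21.4 FPKM in FFa and was not called.

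Genes of spindle motors and microtubule bundling fell in KOb against FFa in 3 of 7 cases (42.9%, beside 18.7% of genes that reached 5 FPKM). All 7 had ratios below 0 there as deposited, beside 50.9% of all genes tested. Nusap1, which encodes a microtubule bundling protein, had 46.8 FPKM in KOa and 40.9 FPKM in KOb, against 66.8 FPKM in FFa. Prc1, which encodes the bundler of the central spindle, had 24.5 FPKM in KOa and 21.2 FPKM in KOb, against 33.6 FPKM in FFa. As deposited, both mutants lay below the control for each. For KOb against FFa the authors' deposited table gave a fall of 0.71 ± 0.31 for Nusap1 (q = 0.000619) and of 0.67 ± 0.28 for Prc1 (q = 0.00115). For KOa against FFa the authors' deposited table gave falls of 0.51 ± 0.31 for Nusap1 (q = 0.0188) and 0.46 ± 0.28 for Prc1 (q = 0.0360). Nusap1 overlaps Oip5 on the other strand, which had 6.73 FPKM in KOa, 5.26 FPKM in KOb and 4.52 FPKM in FFa. Prc1 overlaps Rccd1 in the same way, which had 0.626 FPKM in KOa, 0.506 FPKM in KOb and 0.440 FPKM in FFa.

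Kif23, the motor of the centralspindlin complex that works with PRC1 in cytokinesis, had 33.2 FPKM in KOa, 25.8 FPKM in KOb and 37.1 FPKM in FFa. Its fall of 0.52 ± 0.28 in KOb against FFa was called in the authors' deposited table (q = 0.0161). Kif11, the motor that pushes spindle poles apart, had 27.7 FPKM in KOa, 27.2 FPKM in KOb and 34.2 FPKM in FFa, and Tpx2, the activator of Aurora A, had 67.3 FPKM in KOa, 54.0 FPKM in KOb and 71.5 FPKM in FFa. Neither was called, nor was Kif20a, with 8.13 FPKM in KOa, 9.96 FPKM in KOb and 11.8 FPKM in FFa. The KOa over FFa ratio of Kif20a, -0.54, had a wide implied standard error of 0.57. Its reported locus of 53.1 kb also holds Brd8 and Cdc23. Kif2c, a microtubule depolymerase at centromeres, had 11.0 FPKM in KOa, 7.95 FPKM in KOb and 8.53 FPKM in FFa, and its KOb over KOa ratio of -0.47 ± 0.30 narrowly missed the threshold in the authors' deposited table (q = 0.0535).

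The chromosomal passenger complex joins Aurora B to INCENP, survivin and borealin, and its genes gave calls in opposite directions. Incenp, which encodes the scaffold, had 105.8 FPKM in KOa, 75.8 FPKM in KOb and 70.8 FPKM in FFa. The authors' deposited table gave it a rise of 0.58 ± 0.28 in KOa against FFa (q = 0.00548) and a ratio of -0.48 ± 0.28 in KOb over KOa (q = 0.0276). Aurkb, the kinase of the same complex, was thus called lower in KOa against FFa where Incenp was called higher. Under the globin-free scaling their ratios were -0.11 for Aurkb, smaller than its standard error of 0.27, and 1.12 for Incenp. Birc5, which encodes survivin, fell by 0.47 ± 0.29 in KOb against FFa in the authors' deposited table (q = 0.0321). Cdca8, the borealin gene from the list of further mitotic genes, had 79.1 FPKM in KOa, 70.3 FPKM in KOb and 93.7 FPKM in FFa and was not called. Top2a, which encodes the topoisomerase that untangles sister chromatids, had 75.4 FPKM in KOa, 65.7 FPKM in KOb and 84.6 FPKM in FFa and was not called.

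Genes of anaphase were lower in KOb than in KOa in 3 of 4 cases (75.0%, beside 11.4% of genes that reached 5 FPKM). In KOb against FFa 0 of 4 were called, beside 15.7% higher and 18.7% lower of such genes. Ube2c had a fold of 1.48 in KOa over FFa, and the authors' deposited table called that rise of 0.56 ± 0.24 (q = 0.00839). In KOb its level was 64.9% of that in KOa, a fall of 0.62 ± 0.25 in the authors' deposited table (q = 0.00161), the largest of the 34 in that comparison. Espl1, which encodes separase, had 13.0 FPKM in KOa, 8.77 FPKM in KOb and 11.5 FPKM in FFa, and Pttg1, which encodes its inhibitor securin, had 39.7 FPKM in KOa, 28.2 FPKM in KOb and 37.9 FPKM in FFa. As deposited, both had KOa and FFa close together and KOb below them. In KOb against KOa the authors' deposited table called the fall of Espl1, by 0.57 ± 0.29 (q = 0.00714), and that of Pttg1, by 0.49 ± 0.33 (q = 0.0491). Cdc20, the activator of the anaphase-promoting complex, had 13.1 FPKM in KOa, 13.8 FPKM in KOb and 16.6 FPKM in FFa and was not called, with implied standard errors of 0.53 to 0.56. Elovl1 lies in the same reported locus as Cdc20 and overlaps it on the other strand. It had more FPKM than Cdc20 in each group, with 36.4 in KOa, 31.6 in KOb and 22.6 in FFa. The authors' deposited table called Elovl1 higher in KOa against FFa, by 0.69 ± 0.37 (q = 0.0366). Tnnc2, at 0.221 FPKM in KOa, 0.352 FPKM in KOb and 0.0256 FPKM in FFa, overlaps Ube2c.

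**Figure D4:**
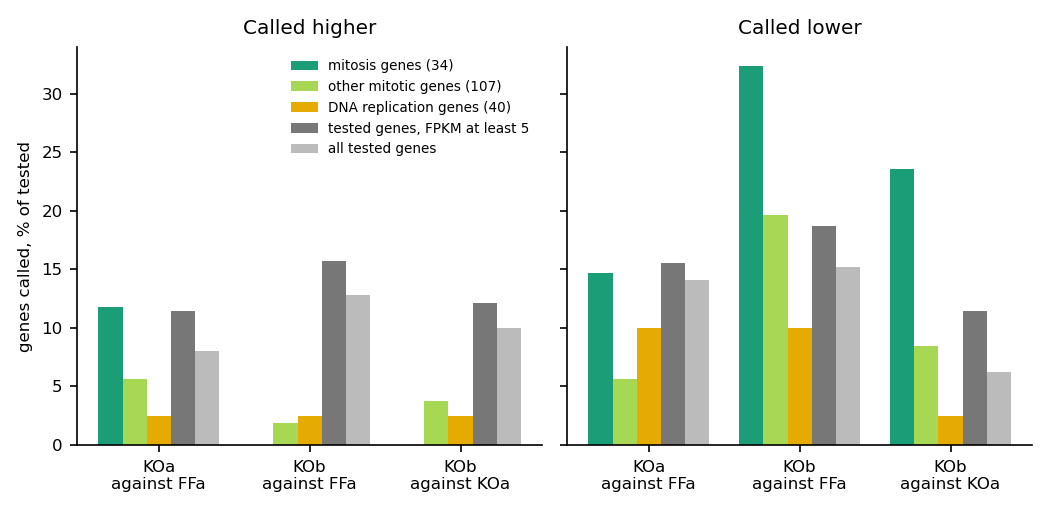
Share of tested genes called higher (left) or lower (right) in each comparison, for the 34 mitosis genes, 107 further mitotic genes, 40 DNA replication genes, tested genes that reached 5 FPKM in 1 of the groups, and all tested genes. Among the mitosis genes 32.4% were lower in KOb over FFa and 23.5% in KOb over KOa, with 0 higher in both; shares against FFa depend on the authors' scaling, and the sign of the members' median there turns without globin.

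A list of 111 further mitotic genes, of which 107 were matched and tested, was described in the same way. By the deposited q of the authors, 2 were higher (1.87%) and 21 lower (19.6%) in KOb against FFa, with a median log2 ratio of -0.26. This lower share was near the 18.7% of genes that reached 5 FPKM, where the mitosis genes had 32.4%; no test of that difference was run. In KOa against FFa 6 were higher and 6 lower (5.61% each), with a median of -0.12. In KOb against KOa 4 were higher (3.74%) and 9 lower (8.41%), against 12.1% and 11.4% of genes that reached 5 FPKM, with a median of -0.11. Both medians against FFa are smaller than the shifts of 0.54 and 0.51 that the globin-free scaling adds, so their sign turns with it. Its parts differed in KOb against FFa, where spindle and cytokinesis genes had the highest lower share, with 9 of 25 (36.0%). The other parts ranged from 1 of 20 condensin and cohesin genes (5.00%) to 4 of 18 genes of other kinases and entry control (22.2%). Among the 9 was Racgap1, which encodes the partner of KIF23 in centralspindlin, with 25.3 FPKM in KOa, 19.7 FPKM in KOb and 29.2 FPKM in FFa. Kifc1, a minus-end motor gene, had 9.77 FPKM in KOa, 5.19 FPKM in KOb and 10.5 FPKM in FFa, and the authors' deposited table called its fall of 1.02 ± 0.31 in KOb against FFa and of 0.91 ± 0.32 when KOb was set against KOa.

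Among the other called genes of this list, named for their size of change, Pkmyt1, which encodes a kinase that inhibits CDK1, had 2.29 FPKM in KOb against 5.85 FPKM in FFa and fell by 1.35 ± 0.59 in the authors' deposited table. Hjurp, the chaperone gene of CENPA, had 4.74 FPKM in KOb against 8.57 FPKM in FFa and fell by 0.85 ± 0.45 in the authors' deposited table. The authors' deposited table also gave, in KOa against FFa, falls for the mitotic kinase gene Pbk, by 1.03 ± 0.27, and the centromere gene Cenpp, by 0.98 ± 0.49. Mad2l1bp, whose product (p31comet) removes MAD2 to silence the checkpoint, had 57.9 FPKM in KOa, 37.2 FPKM in KOb and 29.7 FPKM in FFa, and its rise of 0.96 ± 0.26 in KOa was called in the authors' deposited table. Between the mutants the authors' deposited table gave a fall of 0.81 ± 0.32 for Cenpm and a rise of 0.79 ± 0.36 for Cdc26, a subunit gene of the anaphase-promoting complex.

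Genes of DNA replication, the phase before mitosis, were read the same way. Of 40 tested, 1 was higher (2.50%) and 4 lower (10.0%) in KOa against FFa by the authors' deposited table, where all genes tested gave 7.99% and 14.1%. In KOb against FFa 1 was higher (2.50%) and 4 lower (10.0%), beside 12.8% and 15.2% of all genes tested. In KOb against KOa 1 was higher and 1 lower (2.50% each), beside 10.0% and 6.19%. Their medians were -0.16, -0.13 and 0.03 in that order, the first and second of which turn positive under the globin-free scaling. Tk1, the thymidine kinase gene, had 50.4 FPKM in KOa, 34.1 FPKM in KOb and 57.3 FPKM in FFa and fell by 0.75 ± 0.30 in KOb against FFa in the authors' deposited table. Orc1, which encodes the largest origin recognition subunit, had 10.3 FPKM in KOa and 8.98 FPKM in KOb, against 5.67 FPKM in FFa, a rise of 0.86 ± 0.31 in KOa and 0.66 ± 0.31 in KOb in the authors' deposited table. Rpa3 fell by 0.92 ± 0.27 in KOa against FFa and rose by 0.82 ± 0.28 in KOb against KOa in the authors' deposited table, Pold1 fell by 0.60 ± 0.30 in KOa and Lig1 by 0.60 ± 0.30 in KOb, both against FFa.

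G1 and arrest control genes held larger changes than any mitosis gene. Cdkn1b, which encodes the CDK inhibitor p27, had 80.1 FPKM in KOa, 39.0 FPKM in KOb and 32.4 FPKM in FFa, and in the authors' deposited table it rose by 1.31 ± 0.28 in KOa against FFa and fell by 1.04 ± 0.28 in KOb against KOa. Cdk6, a G1 kinase gene, had 4.47 FPKM in KOa, 13.0 FPKM in KOb and 3.14 FPKM in FFa, and rose in KOb by 2.05 ± 0.33 against FFa and by 1.54 ± 0.31 against KOa by the authors' deposited table. Cdkn1a, which encodes p21, had 8.38 FPKM in KOa and 7.19 FPKM in KOb, against 1.15 FPKM in FFa. Ccng1, a cyclin gene induced by p53, had 10.2 FPKM in KOa and 15.1 FPKM in KOb, against 4.10 FPKM in FFa. Both were higher in each mutant in the authors' deposited table. Ccnd2, a D-type cyclin gene, had 2.01 FPKM in KOb against 1.02 FPKM in KOa and rose by 0.98 ± 0.37 in the authors' deposited table. In all, 3 of 24 of this list were higher (12.5%) and 1 lower (4.17%) in KOa against FFa, beside 11.4% and 15.5% of genes that reached 5 FPKM. In KOb against FFa 5 of 23 were higher and 5 lower (21.7% each), beside 15.7% and 18.7% of such genes. In KOb against KOa 5 of 24 were higher (20.8%) and 6 lower (25.0%), beside 12.1% and 11.4%.

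Paralogs of the members form a small list, which also holds Pttg1ip. That gene encodes a protein that binds securin, is not a paralog of Pttg1, and was not called in any comparison. Of 13 such genes 9 were tested in each comparison, with 0 higher in any and 2 lower in KOa over FFa (22.2%), 2 in KOb over FFa (22.2%) and 1 in KOb over KOa (11.1%) in the authors' deposited table. Over all genes tested the lower shares were 14.1%, 15.2% and 6.19% in that order. Ccna1, the germ cell cyclin A gene, was listed at 0 in KOa, and Aurkc, the germ cell Aurora gene, was listed at 0 in FFa. Cdk2, the kinase of the G1 to S transition, had 34.4 FPKM in KOb against 51.4 FPKM in KOa, a fall of 0.58 ± 0.30 in the authors' deposited table. The falls against FFa were of Birc3, by 1.14 ± 0.49 in KOa and 1.88 ± 0.58 in KOb, and of Xiap, by 0.55 ± 0.32 in KOa and 0.50 ± 0.32 in KOb, both in the authors' deposited table.

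Markers of the labelled cells were present in every group. The 7 erythroid markers used, of 9 listed, summed to 2282 FPKM in KOa, 1659 FPKM in KOb and 3347 FPKM in FFa. Alas2 and Slc4a1, described next, made up most of each sum. Of 7 tested, the authors' deposited table called 0 higher in any comparison. It called 1 lower in KOa over FFa (14.3%), 2 in KOb over FFa (28.6%) and 2 in KOb over KOa (28.6%). Over all genes tested the lower shares were 14.1%, 15.2% and 6.19% in that order, and the higher shares 7.99%, 12.8% and 10.0%. In KOa over FFa the markers moved in both directions, with 3 of 7 ratios above 0 and a median log2 ratio of -0.02. In KOb all 7 ratios as deposited were below 0, with a median of -0.37 against FFa and -0.40 against KOa. Alas2, which encodes the first enzyme of erythroid heme synthesis, had 1167 FPKM in KOa and 861.3 FPKM in KOb, against 2082 FPKM in FFa, and was called lower in both mutants in the authors' deposited table (-0.84 ± 0.40 in KOa and -1.27 ± 0.39 in KOb). Slc4a1, which encodes the red cell anion exchanger band 3, had 713.6 FPKM in KOa, 470.3 FPKM in KOb and 867.5 FPKM in FFa. Early progenitor markers, 8 matched, summed to 6.85 FPKM in KOa, 14.1 FPKM in KOb and 9.18 FPKM in FFa. Of these, 1 was higher and 1 lower in KOa over FFa, 3 higher in KOb over FFa and 2 higher in KOb over KOa in the authors' deposited table, and Kit was higher in KOb than in KOa, with 2.36 against 0.751 FPKM. The part of maturation stage in the mitosis results was not tested.

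Other cell types differed mainly between mutants and FFa. Over all genes tested, 7.99% were called higher and 14.1% lower in KOa over FFa. These shares were 12.8% and 15.2% in KOb over FFa, and 10.0% and 6.19% in KOb over KOa. The percentages below are of the markers tested in each comparison. B cell markers (14 of 14 matched) summed to 26.3 FPKM in KOa and 23.8 FPKM in KOb, against 249.2 FPKM in FFa, and 11 and 13 of them were lower in KOa and KOb in the authors' deposited table, with 0 called between the mutants. Granulocyte markers (13 of 14) summed to 16613 FPKM in KOa and 13464 FPKM in KOb, against 48889 FPKM in FFa. Of 13 tested against FFa, 2 were higher (15.4%) and 5 lower (38.5%) in KOa. In KOb 2 were higher (15.4%) and 7 lower (53.8%) against FFa, and 1 of 13 was lower against KOa (7.69%). Macrophage and monocyte markers (12 of 12) summed to 60.4 FPKM in KOa, 34.9 FPKM in KOb and 91.1 FPKM in FFa. Against FFa 7 of 11 tested were lower in KOa (63.6%) and 11 of 11 in KOb (100%). In KOb against KOa 4 of 9 tested were lower (44.4%). Megakaryocyte markers (10 of 10) summed to 70.5 FPKM in KOa, 57.0 FPKM in KOb and 39.3 FPKM in FFa. Of 7 tested, 3 were higher in each mutant against FFa (42.9%), with 1 lower in KOa (14.3%) and 2 lower in KOb (28.6%). In KOb against KOa 1 of 7 was lower (14.3%). T and NK cell markers (9 of 10) summed to 16.6 FPKM in KOa, 15.2 FPKM in KOb and 14.7 FPKM in FFa. Against FFa 1 of 8 tested was higher in KOa (12.5%), with 0 lower. In KOb 1 of 7 tested was higher (14.3%) and 3 lower (42.9%) against FFa, and 0 of 7 were called against KOa. No marker of any list was at 0 in any group, and the part of these cells in the mitosis results was not tested.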

How the data were processed

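RNA was measured in 9 libraries, 3 per group, purified on RNeasy columns with DNase digestion. Total RNA went into the NuGEN Encore Complete kit, per the labels' protocols. Reads were processed with Cuffdiff 2.1.1, Bowtie2 2.1.0 and TopHat2 2.0.8b on build mm10, per the submitters' processing notes. Annotation, filters, scaling and strand use: not given in the sources used here. For each gene and group, the authors deposited 1 FPKM value, and beside it the log2 ratio of these values with no pseudocount, a test statistic (a score), a p-value and a q-value for each of 3 comparisons. Recomputation showed the deposited q to be Benjamini-Hochberg over the 31813 tested results together (largest difference 5.27e-07); the smallest deposited p is 5e-05. Standard errors, folds, sums and counts were computed here with pandas 2.3.3 and numpy 2.4.6 under Python 3.11.15, figures with matplotlib 3.10.9, and the adjustment was tested on simulated data. Depth per library is unknown, so no interval from counts is given.

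The 34 genes and the other 11 lists were chosen with earlier results of these data known. Named are all 34, Trim28, and from each list at most 3 called genes of largest log2 ratio per comparison that reached 1 FPKM in 1 of the groups, plus Spc24, Cdca8 and Racgap1, chosen as complex partners after their values were seen. The background of genes that reached 5 FPKM and the 8 printed promoters were also chosen after values were seen. The E2F forms were shortened to 7 letters after a first search with longer ones matched fewer promoters. Promoters of DNA replication genes and of all tested genes are not compared, since under 80% of them had a window, which makes that check void. Alternatives were other q thresholds, adjustment within a comparison, the statistic read as a standard normal, an FPKM minimum of 5, a pseudocount of 1, centring on the median of genes at or above 1 FPKM in both groups, and scaling to equal sums without the 11 globin genes. Overlapping genes were read from GENCODE. Of the erythroid markers, 1 is not reported here and enters no sum or count of that list.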

Additional observations from a re-analysis of the deposited data

Results flagged for a closer look

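For 8 of the mitosis genes the mutant populations differed from each other, by the direct test of KOb against KOa in the authors' deposited table. The log2 ratios of KOb over KOa were -0.62 for Ube2c, -0.57 for Espl1, -0.51 for Aurka, -0.51 for Plk1, -0.49 for Pttg1, -0.48 for Cdk1, -0.48 for Incenp and -0.46 for Spc25. The sort gate and the degree of deletion differ together in this comparison and cannot be told apart. Read as a standard normal value, the statistic behind these calls passes for 0 of the 8 after adjustment.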

How the results depend on the processing

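Counts of called members changed most with the test. At a q below 0.01, 2 were higher and 1 lower in KOa against FFa, 4 were lower in KOb against FFa and 2 were lower in KOb against KOa. Shares of all genes at that q were not computed. With the statistic taken as a standard normal value the counts were 0 higher and 0 lower in KOa against FFa, 0 lower in KOb against FFa and 0 lower in KOb against KOa, while 271 and 534, 384 and 627, and 200 and 83 genes of the whole table stayed higher and lower in these comparisons. Scaling to equal sums without globin turned the members' median to 0.445 in KOa against FFa and 0.1541 in KOb against FFa. It also turned Cenpa (0.0027), Nusap1 (0.0251) and Prc1 (0.0812) in KOa against FFa, and Birc5 (0.0413), Bub1b (0.0443), Ccnb2 (0.0442) and Cdc25c (0.0173) in KOb against FFa; by its construction it adds 1 constant to every ratio of a comparison. It moved 13 more of the 28 called ratios by more than their implied standard error. Among these, the KOb over FFa falls of Cdk1 (-0.0056), Kif23 (-0.0123) and Aurka (-0.0348) nearly vanished. The KOa over FFa rises of Plk1, Spc25, Incenp and Ube2c grew. Counts kept within 1.5 times of those reported at a q below 0.10, with adjustment within each comparison and with an FPKM of at least 5, and the 3 medians and 28 called ratios kept their direction with a pseudocount of 1 and with median centring. No paired analysis was possible because the table holds no value per library, and for the same reason no replicate was left out in turn. Unknown depth and pooled values limit all of these results.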

Other observations

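The genes below were picked from the G1 and arrest control list after their values were seen. E2f4, a repressor E2F that sits in the DREAM complex, had 126.8 FPKM in KOa, 87.1 FPKM in KOb and 109.6 FPKM in FFa. E2f8, an atypical repressor E2F, had 90.0 FPKM in KOa, 58.8 FPKM in KOb and 79.8 FPKM in FFa, and E2f2, an activator E2F, had 74.2 FPKM in KOa, 53.7 FPKM in KOb and 72.7 FPKM in FFa. In KOb against KOa the authors' deposited table gave falls of 0.54 ± 0.27 for E2f4 (q = 0.0111), 0.61 ± 0.29 for E2f8 (q = 0.00513) and 0.47 ± 0.29 for E2f2 (q = 0.0344). Ccnd3, the D-type cyclin gene known for its part in the number of erythroid divisions, had 80.4 FPKM in KOa, 129.0 FPKM in KOb and 171.9 FPKM in FFa, with a fall of 1.10 ± 0.38 in KOa against FFa and a rise of 0.68 ± 0.36 in KOb against KOa in the authors' deposited table. No explanation of these levels was tested.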
